A study of Mus musculus with 6 samples.

Results

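Genes of glycolysis and of the response to low oxygen were followed in hematopoietic stem cells (HSCs) of WT and CD74-/- mice. The set holds 35 genes, listed by symbol with earlier results of these data known. It covers the hypoxia-inducible factor (HIF) subunits, the oxygen sensors that govern them and glucose transporters. Glycolytic enzymes and their regulators, and well-known HIF targets, complete it. All 35 were among the 19846 genes of the table. Aldoa has 2 rows there, and the row with the higher mean was used, since the other was at 0 in every library. CD34-/LSK cells, the stem cell fraction that lacks lineage markers and CD34 and carries Sca-1 and c-Kit, were sorted from the bone marrow of 3 WT and 3 CD74-/- mice. All mice were untreated C57BL/6 animals of 6 to 8 weeks, and each of the 6 libraries was made from 1000 cells. Nothing in the labels ties a library to its own mouse, so p-values measure the spread between these libraries. CD74, the missing protein, is the invariant chain of MHC class II and a surface receptor for the cytokine MIF. The comparison of genotypes addresses whether RNA of the hypoxia response differs in stem cells without this receptor, in a study that also followed their survival under hypoxia.

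In cells with oxygen, prolyl hydroxylases (the Egln proteins) mark HIF-alpha subunits for destruction through the VHL ubiquitin ligase. Without oxygen the alpha subunit persists, pairs with Arnt and binds DNA at short elements that contain ACGTG or GCGTG, and genes for glucose uptake, glycolysis, lactate formation, mitophagy and vessel growth are transcribed. HIF-alpha levels are therefore set largely at the protein, which these RNA values do not measure. By flow cytometry, the study reported less HIF-1alpha protein in CD34- cells of CD74-/- mice than of WT mice. Adult HSCs reside in a bone marrow of low oxygen, and they are known for a glycolytic metabolism that depends on Hif1a and on pyruvate dehydrogenase kinases.

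The libraries held 14390534 to 16198678 reads in genes. A normalized count is the number of reads in a gene divided by the size factor of the library, and 1 read was worth between 0.896 and 1.07 normalized counts. Cd74 itself stood at 3287, 2459 and 3107 normalized counts in WT and at 46.0, 72.0 and 72.8 in CD74-/- libraries, in the direction of the labels. The 12 stem cell markers (Kit, Ly6a, Procr, Mecom and others) were above 0 in every library, and their summed level was 45800 to 59960 in WT and 36740 to 62400 in CD74-/- libraries. Markers of other blood cells were also present. The summed level of 14 neutrophil markers was 169600 to 1004000 in WT and 38610 to 158800 in CD74-/- libraries, that of 10 monocyte and macrophage markers 27220 to 46020 and 9469 to 37850, that of 10 B cell markers 3109 to 10440 and 1275 to 3163, and that of 13 erythroid markers 39120 to 59330 and 25200 to 39280. WT replicate 1 had the highest sum of each of these 4 lists. For neutrophil markers the other WT libraries were at 169600 and 243400, beside 158800 in CD74-/- replicate 1. All markers of these 4 lists were above 0 in the WT libraries and in CD74-/- replicate 1. In CD74-/- replicate 2, 13 of 14 neutrophil, 6 of 10 monocyte, 5 of 10 B cell and 10 of 13 erythroid markers were above 0, and those at 0 included Csf1r, Adgre1, Cd79a, Pax5 and Alas2. In CD74-/- replicate 3 the counts were 14, 7, 7 and 12, and those at 0 included Cd14, Fcgr1, Igll1 and Pax5. Sums follow the most abundant markers (Cd79b and Car2 dominate those of B cells and erythroid cells in CD74-/- libraries). By the fold change of single markers, 13 of 14 neutrophil, 9 of 10 monocyte, 10 of 10 B cell and 8 of 10 platelet markers tested were negative, as were 11 of 12 erythroid and 10 of 12 stem cell markers. The sums of platelet markers overlapped between the groups (6608 to 7968 in WT, 4951 to 7595 in CD74-/-), as did those of T and NK cell markers (3204 to 7780 and 4993 to 11700). In sorted pools, fewer cells of a type and less RNA per cell cannot be told apart, and the part of these markers in the values that follow was not tested.

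No gene of the set passed the threshold in either direction. Of the 35 genes, 33 reached a mean normalized count of 10 and were tested with limma, and 0 had a Benjamini-Hochberg adjusted p under 0.05, beside 0.0873% of the 14892 genes tested overall. Egln3 was the only one with an unadjusted p under 0.05 and a higher level in CD74-/- cells (3.14% of all genes), and Vegfa the only one with a lower level (4.6% of all genes). Tests on whole reads recovered from the table gave no call either. In them 0 of the set passed with edgeR, DESeq2 or limma-voom, beside 0.083%, 0.756% and 0.0415% of all genes, and 2, 3 and 2 genes had an unadjusted p under 0.05, beside 7.09%, 8.35% and 7.04%. The third gene with DESeq2 was Slc2a3. The log2 fold change (CD74-/- minus WT) was positive for 12 genes and negative for 21, a split that was 18 to 15 with edgeR and 17 to 16 with DESeq2. Its median was -0.04, beside -0.03 over all genes tested, and the median of its absolute size was 0.27, beside 0.38 over all genes. The set and all genes were not matched for level in this comparison. The estimate lay within 1 log2 unit of 0 for 28 of the 33, and the share over all genes was not counted. The precision was limited, since the 95% confidence interval lay within a 2-fold change either way for only 12 of the 33.

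**Figure D1:**
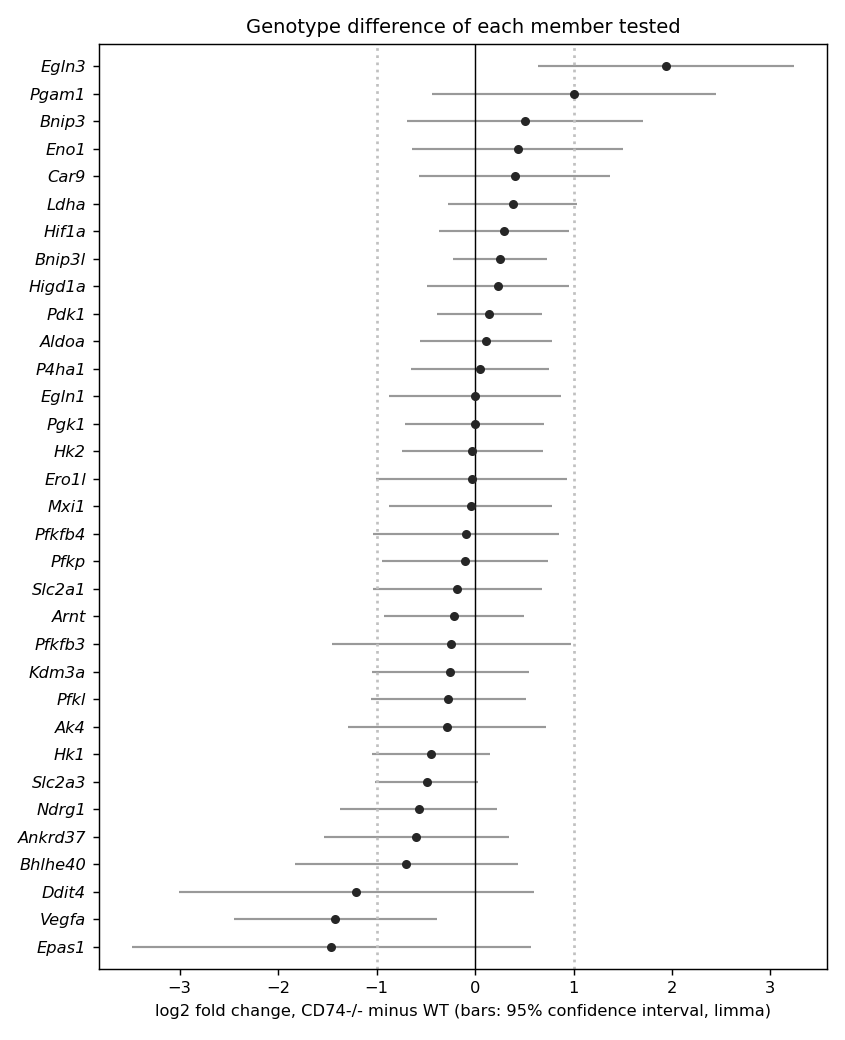
Log2 fold change of each of the 33 genes tested, CD74-/- minus WT, on the log2(normalized count + 1) scale (x axis), with genes in the order of their fold change (y axis). Points are limma estimates, bars their 95% confidence intervals, and dotted lines mark a 2-fold change; only the intervals of Egln3 and Vegfa leave out 0.

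The 250 bases before the RefSeq start site were searched for the core letters of the HIF element, ACGTG and GCGTG, on both strands. The palindrome CACGTG holds ACGTG on each strand and counts as 2 matches. Windows were found for 30 of the 35 genes (none for Slc2a3, Epas1, Ndrg1, Bnip3l and Bhlhe40; Ero1l was matched under its RefSeq name Ero1a). ACGTG was present in 50% of the 46 windows of the set, beside 16.57% of all 32851 windows, and GCGTG in 58.7%, beside 28.16%. Either was present in 84.78% and 38.6%. By gene, ACGTG was in at least 1 window for 66.67% of the set and 18.49% of all genes searched. Some genes have windows that overlap and repeat a match, and the set and all windows were not matched for base composition. The set was assembled from known HIF targets, so this describes its members, and a match is not shown to be bound. Windows of 4 genes are printed, and a link of motifs to expression values was not tested. They are the genes with the smallest p in either direction (Egln3 and Vegfa) and a pair of glycolytic enzymes with ACGTG (Ldha and Pgam1). This pair was chosen after the matches were seen, among enzymes whose CD74-/- libraries lay on both sides of WT. Other such enzymes differ in the windows nearest the annotated gene start. There Aldoa holds neither motif, Eno1 holds 1 GCGTG, Hk2 2 ACGTG and Pfkp 3 GCGTG. The matches depend on the start site used: further windows of Aldoa hold 1 ACGTG each, and those of Eno1 hold 2 GCGTG each. A second Ldha window holds 1 GCGTG and no ACGTG. The 4 windows are given 5′ to 3′ on the strand of the gene, in the build GRCm38.p6, with each match of either motif in capitals. The window of Egln3 (chr12:54203875-54204124, minus strand) holds 1 ACGTG, 229 bases before the start. That of Vegfa (chr17:46032378-46032627, minus strand) holds neither motif, which says only that these letters are not in this window, and a second Vegfa window (chr17:46025164-46025413) holds 1 ACGTG and 1 GCGTG. That of Ldha (chr7:46845554-46845803, plus strand) holds 5 matches of ACGTG, 4 of them in 2 palindromes at 145 and 48 bases before the start. That of Pgam1 (chr19:41911621-41911870, plus strand) holds 1 ACGTG and 2 GCGTG.
Egln3: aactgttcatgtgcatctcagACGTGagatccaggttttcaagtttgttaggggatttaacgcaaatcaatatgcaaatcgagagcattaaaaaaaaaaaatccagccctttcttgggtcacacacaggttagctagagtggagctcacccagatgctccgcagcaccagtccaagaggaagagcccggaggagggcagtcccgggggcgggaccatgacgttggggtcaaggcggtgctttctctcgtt
Vegfa: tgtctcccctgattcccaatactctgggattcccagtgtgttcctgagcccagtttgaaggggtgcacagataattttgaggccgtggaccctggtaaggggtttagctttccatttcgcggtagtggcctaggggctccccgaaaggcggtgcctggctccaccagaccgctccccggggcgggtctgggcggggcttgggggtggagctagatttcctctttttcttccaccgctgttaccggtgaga
Ldha: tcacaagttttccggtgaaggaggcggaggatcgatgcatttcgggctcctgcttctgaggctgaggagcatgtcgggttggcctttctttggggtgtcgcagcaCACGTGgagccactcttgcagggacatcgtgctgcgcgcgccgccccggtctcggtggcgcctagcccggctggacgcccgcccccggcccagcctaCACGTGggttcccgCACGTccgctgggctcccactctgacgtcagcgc
Pgam1: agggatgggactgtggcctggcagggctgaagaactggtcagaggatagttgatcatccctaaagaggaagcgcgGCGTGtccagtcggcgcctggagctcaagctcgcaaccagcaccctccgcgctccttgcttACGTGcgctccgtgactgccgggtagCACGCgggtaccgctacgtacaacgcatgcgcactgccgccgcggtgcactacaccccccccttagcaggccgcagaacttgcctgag

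No HIF subunit passed the test. Hif1a (chromosome 12, 73901375 to 73947530), which encodes the widely expressed oxygen-regulated subunit, was at 1589, 1223 and 1977 normalized counts in WT libraries and at 1672, 1504 and 2815 in CD74-/- libraries. The groups overlapped, and only CD74-/- replicate 3 lay above all WT values. The log2 fold change was 0.29 (SE 0.296, 95% confidence interval -0.36 to 0.95, adjusted p = 0.811), and without CD74-/- replicate 3 it was 0.02. Epas1, which encodes HIF-2alpha, was scarce: 40.7, 45.7 and 16.1 in WT and 6.85, 13.2 and 13.3 in CD74-/- libraries. All CD74-/- values lay below all WT values, but these are only 7 to 13 reads against 17 to 51, and the difference of -1.46 (SE 0.912) had an adjusted p of 0.712. Arnt, the constant partner subunit, was at 351, 351 and 306 in WT and at 239, 320.4 and 315 in CD74-/- libraries. Its groups overlapped, with a log2 fold change of -0.21 (SE 0.321, adjusted p = 0.881). Per kilobase of exon, Hif1a stood at 271 normalized counts in WT cells, Arnt at 42.0 and Epas1 at 6.11. The log2 ratio of Epas1 to Hif1a within a library was -5.61 ± 1.11 (SD, n = 3) in WT and -7.36 ± 0.55 in CD74-/- cells, and its groups overlapped (exact permutation test, p = 0.2, 0.533 after adjustment over 8 ratios).

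Of the oxygen sensors, Egln3 gave the largest difference of the set. Egln3 (PHD3; chromosome 12, 54178981 to 54203860, minus strand) is a prolyl hydroxylase whose gene is itself a HIF target, and its level was 61.0, 60.9 and 23.6 in WT and 201, 236 and 111 in CD74-/- libraries. Every CD74-/- library lay above every WT library, with means of 48.5 ± 21.5 and 182 ± 64.7 (SD, n = 3), a ratio of 3.76. Groups that do not overlap in this direction were found for 5.35% of all genes tested. The log2 fold change was 1.94 (SE 0.586, 95% confidence interval 0.64 to 3.24), with an unadjusted p of 0.0077 and an adjusted p of 0.517 with limma. The exact permutation test over libraries gave p = 0.1, the smallest that 3 against 3 allows. With each library left out in turn the log2 fold change stayed between 1.50 and 2.26. No 50-base stretch of its transcripts occurs in another annotated gene. Egln1 (PHD2), the main sensor of normal oxygen, was at 522, 452 and 553 in WT and at 599.7, 274 and 791 in CD74-/- libraries. The CD74-/- libraries spanned the whole WT range, and the log2 fold change was -0.0031 (SE 0.394). The ratio of Egln3 to Egln1 was the only one of 8 paralog ratios whose groups lay apart (difference 1.94 log2 units), with an adjusted exact p of 0.533.

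**Figure D2:**
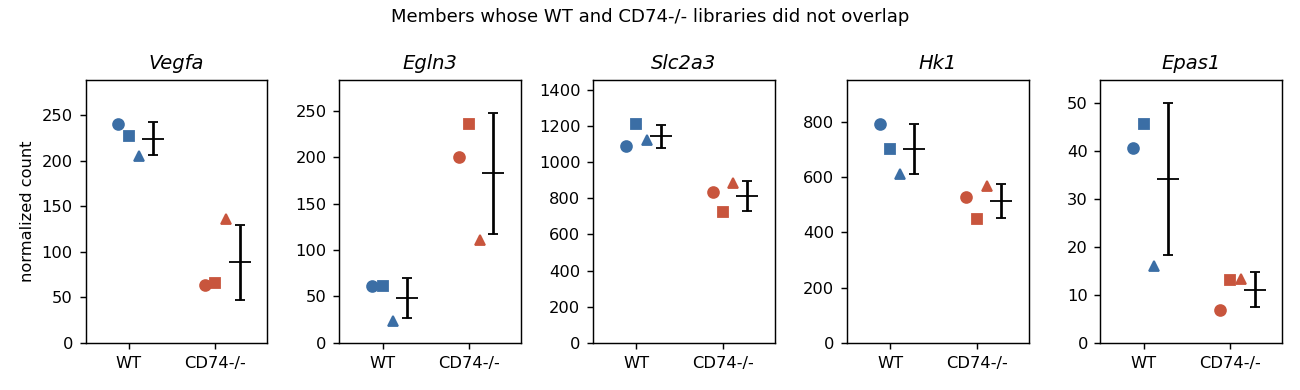
Normalized counts (y axis, from 0) of the 5 genes whose WT (blue) and CD74-/- (red) libraries did not overlap; circles, squares and triangles are replicates 1, 2 and 3, and bars are mean ± SD over 3 libraries. Egln3 was higher in CD74-/- cells, and Vegfa, Slc2a3, Hk1 and Epas1 were lower.

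Vegfa had the other unadjusted p under 0.05. Vegfa (chromosome 17, 46016993 to 46032369, minus strand), the secreted factor that drives vessel growth, was at 241, 227 and 205 in WT and at 63.6, 65.9 and 136 in CD74-/- libraries. The groups did not overlap, and the means were 224 ± 17.9 and 88.6 ± 41.3 (SD, n = 3). The log2 fold change was -1.42 (SE 0.463, 95% confidence interval -2.45 to -0.39, unadjusted p = 0.0117, adjusted p = 0.528 with limma), and it ranged from -1.77 to -1.23 with each library left out. Besides Vegfa, groups were apart with lower CD74-/- values for Slc2a3, Hk1 and Epas1, 4 of 33 genes in all, beside 7.47% of all genes tested. Some marker lists of other blood cells were apart in the same direction. The mean log2 level of the listed markers was 11.5 to 13.7 in WT and 8.32 to 10.9 in CD74-/- libraries for neutrophils. It was 7.29 to 9.29 and 2.99 to 6.10 for B cells, 7.91 to 9.89 and 5.28 to 7.59 for erythroid cells, and 7.95 to 8.24 and 7.01 to 7.42 for platelets. The groups overlapped for monocytes (7.16 to 8.63 in WT, 4.19 to 7.19 in CD74-/-), T and NK cells (3.70 to 6.19 and 3.26 to 5.19) and stem cells (10.6 to 11.4 and 10.3 to 11.2). The part of these markers in the lower values was not tested. Car9, the membrane carbonic anhydrase that keeps pH under hypoxia, was at 158, 168 and 154 in WT and at 297, 253 and 126 in CD74-/- libraries. Its log2 fold change was 0.40 (SE 0.435), with CD74-/- replicate 3 lowest and the other CD74-/- libraries highest of the 6. The antisense gene Gm12454 overlaps 9.29% of its exon bases, and reads of the pair cannot be told apart because strand was not kept. Adm, which encodes the vasodilator peptide adrenomedullin, was not tested: it had 28 reads in WT replicate 1 and 0 in the other 5 libraries, where a count of 0 allows up to 3 reads.

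The glucose transporters were both lower on average, without passing the test. Slc2a3 (GLUT3), a high-affinity transporter, was at 1086, 1212 and 1124 in WT and at 832, 723 and 884 in CD74-/- libraries. The groups did not overlap, and the log2 fold change of -0.49 (SE 0.235, 95% confidence interval -1.01 to 0.03) had an adjusted p of 0.668. Slc2a1 (GLUT1), a classic HIF target, was at 165, 238 and 288 in WT and at 227, 168 and 203 in CD74-/- libraries. These values overlapped throughout (log2 fold change -0.18, SE 0.386, adjusted p = 0.927). Per kilobase of exon, Slc2a3 stood at 158 and Slc2a1 at 65.7 normalized counts in WT cells.

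Of the 9 glycolytic enzymes tested, 4 had a positive and 5 a negative log2 fold change (of these, Hk2 and Pfkp turned positive with edgeR and DESeq2, and Pgk1 with limma-voom and TMM factors), from -0.45 for Hk1 to 1.00 for Pgam1, with adjusted p-values from 0.711 to 0.997. Hk1, a hexokinase that traps glucose in the cell, was at 794, 702 and 610 in WT and at 527, 448 and 568 in CD74-/- libraries, which did not overlap. Ldha (chromosome 7, 46841475 to 46855627), the subunit of lactate dehydrogenase that serves lactate formation, was at 4012, 4315 and 4713 in WT and at 7861, 6737 and 3399 in CD74-/- libraries. Its CD74-/- replicates 1 and 2 lay above and replicate 3 below all WT libraries, and the log2 fold change was 0.38 (SE 0.295, adjusted p = 0.753). Eno1 (enolase) showed the same order, at 509, 603 and 860.0 in WT and at 1326, 1359 and 359.7 in CD74-/- libraries. Pgam1 (phosphoglycerate mutase) was at 42.8, 48.4 and 44.5 in WT and at 157, 122 and 40.0 in CD74-/- libraries. Aldoa (aldolase A) was at 3814, 4669.6 and 3985 in WT and at 5739.6, 5846 and 2652 in CD74-/- libraries. All 4 genes thus had CD74-/- replicates 1 and 2 as the highest of the 6 libraries and replicate 3 as the lowest, a pattern singled out after the values were seen. The order was turned around for Hk2 and Pfkp, a hexokinase and a phosphofructokinase subunit: Hk2 was at 404, 465 and 788 and Pfkp at 254, 380.2 and 666 in CD74-/- libraries, beside 497 to 583 and 414 to 454 in WT. Pfkl, the liver-type subunit, and Pgk1, phosphoglycerate kinase, overlapped between the groups (log2 fold changes -0.27 and -0.01). Copies limit some of these values: 53.9% of the 50-base words of Pgk1, 36.2% of those of Pgam1 and 26.0% of those of Eno1 also occur in other annotated genes, which are processed pseudogenes for Pgk1 and Pgam1 and above all the gene Eno1b for Eno1, so that reads could have been lost or shared. Per kilobase of exon, Aldoa (1428) and Ldha (1313) were the highest of the set in WT cells, with SDs of 156 and 106 over 3 libraries, so that their order is not settled beyond that spread.

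**Figure D3:**
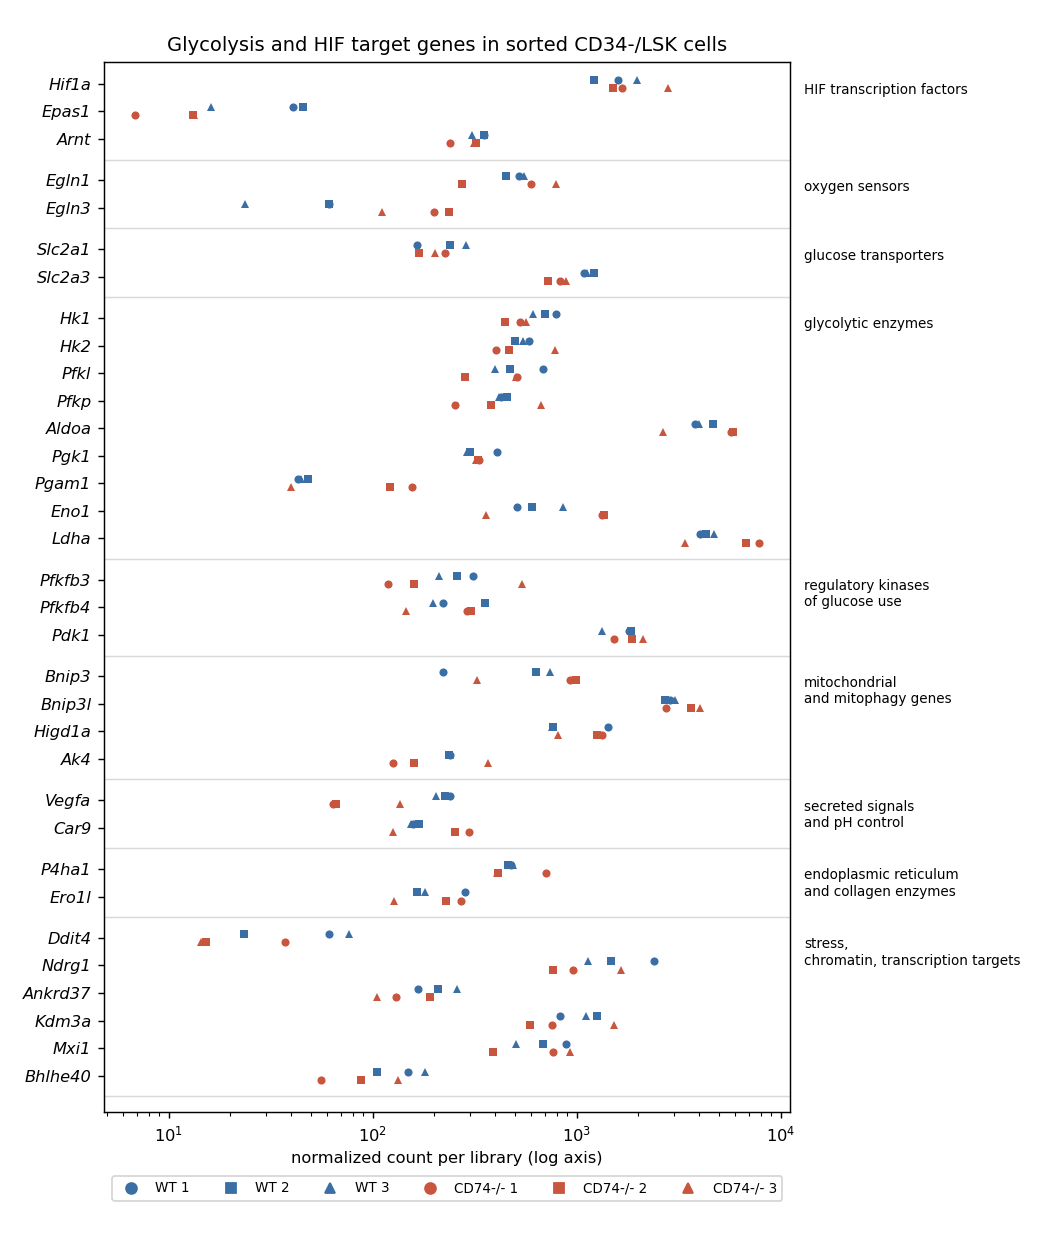
Normalized count of each of the 33 genes tested in every library (x axis, log scale), grouped by role (y axis); blue is WT, red CD74-/-, and circles, squares and triangles are replicates 1, 2 and 3. The red triangle of CD74-/- replicate 3 often stands away from the other red symbols, on the low side for Ldha, Eno1, Pgam1 and Aldoa and on the high side for Hk2, Pfkp and Pfkfb3.

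None of the kinases that steer glucose use passed the test. Pdk1, which holds pyruvate back from the mitochondria by inactivating pyruvate dehydrogenase, was at 1809, 1857 and 1332 in WT and at 1530.0, 1860.5 and 2122 in CD74-/- libraries. The ranges overlapped, with a log2 fold change of 0.14 (SE 0.240, 95% confidence interval -0.39 to 0.68, adjusted p = 0.897). Pfkfb3 and Pfkfb4 make and remove the activator of phosphofructokinase. Pfkfb3 was at 311, 259 and 212 in WT and at 119, 159 and 542 in CD74-/- libraries, and Pfkfb4 was at 199 to 354 in WT and at 291, 304 and 146 in CD74-/- libraries. In CD74-/- replicate 3 the 2 kinases lay at opposite ends, as the highest and the lowest library of the 6.

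Among mitochondrial and mitophagy genes, 3 of 4 had a positive fold change, and their adjusted p-values ran from 0.773 to 0.891. Bnip3, a mitophagy receptor, was at 220.5, 632 and 745 in WT and at 933, 989 and 325 in CD74-/- libraries, and its relative Bnip3l (NIX) at 2713 to 3048 and 2734 to 4036. Both overlapped between the groups, with log2 fold changes of 0.51 (SE 0.540) and 0.26 (SE 0.216). WT replicate 1 was the low library of Bnip3, and without it the log2 fold change was -0.035. Bnip3 shares 47.2% of its 50-base words with other annotated genes, among them an antisense gene. Higd1a, a mitochondrial inner membrane protein induced by hypoxia, was at 761 to 1424 in WT and 806 to 1326 in CD74-/- libraries. It shares 24.4% of its 50-base words with other annotated genes, also with an antisense gene among them. Bnip3l shares 20.8% of its words with a processed pseudogene. Ak4, a mitochondrial adenylate kinase, was at 239, 237 and 238 in WT and at 126, 160.2 and 368 in CD74-/- libraries, so that the WT libraries lay within a narrow band inside the CD74-/- range.

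P4ha1, the catalytic subunit of collagen prolyl hydroxylase, was at 461 to 487 in WT and 408 to 708 in CD74-/- libraries, and Ero1l, an oxidase for disulfide formation, at 166 to 284 and 127 to 271. Their log2 fold changes were 0.05 and -0.03. P4ha2 was at the edge of detection, with 6 reads in WT replicate 2, 3 reads in CD74-/- replicate 3 and 0 elsewhere.

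The remaining targets in stress, chromatin and transcription had a negative fold change in 6 of 6 members tested, with a median of -0.59, although Mxi1 was positive with edgeR and DESeq2. None passed the test (adjusted p 0.712 to 0.983). Ddit4 (REDD1), an inhibitor of mTORC1, was at 61.0, 23.3 and 76.6 in WT and at 37.2, 15.2 and 14.3 in CD74-/- libraries, an overlap through WT replicate 2 (log2 fold change -1.21, SE 0.811). Bhlhe40, a transcriptional repressor, was at 105 to 180 in WT and 55.8 to 133 in CD74-/- libraries (log2 fold change -0.70). Ankrd37, a target with an ankyrin domain, was at 167 to 260.2 and 105 to 191 (log2 fold change -0.60). Ndrg1, a stress-induced gene, was at 2404, 1468 and 1135 in WT and at 957, 763 and 1659 in CD74-/- libraries (log2 fold change -0.57). Only CD74-/- replicate 3 overlapped the WT libraries of Ndrg1. Kdm3a, a histone demethylase, was at 828, 1253 and 1113 in WT and at 761, 591 and 1525 in CD74-/- libraries, and Mxi1, a MYC antagonist, at 503 to 883 and 391 to 927. Their log2 fold changes were -0.25 and -0.04, and for both CD74-/- replicate 3 was the highest library. Ankrd37 overlaps exons of Lrp2bp on the opposite strand over 22.7% of its exon bases.

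CD74-/- replicate 3 stood apart within its group in these genes. It was the highest of the 6 libraries for 10 of the 33 genes and the lowest for 10, which is 60.6% at an end, beside 40.3% over all genes tested. The other libraries were at an end for 18.2% to 36.4% of the set. Over all genes, WT replicate 1 (39.6%) and CD74-/- replicate 2 (39.5%) were at an end about as often as CD74-/- replicate 3. CD74-/- replicate 3 was lower than the mean of CD74-/- replicates 1 and 2 by over 1 log2 unit for Eno1 (-1.90), Pgam1 (-1.76), Bnip3 (-1.56), Aldoa (-1.13), Car9 (-1.12), Ldha (-1.098) and Pfkfb4 (-1.03). It was higher by over 1 unit for Pfkfb3 (1.97), Ak4 (1.37), Kdm3a (1.18), Pfkp (1.096) and Vegfa (1.06). The SD of the log2 level was larger in CD74-/- than in WT libraries for 24 of 33 genes, beside 62.1% of all genes, and its median over the set was 0.28 in WT and 0.58 in CD74-/- libraries (0.41 and 0.54 over all genes). The signed deviation of CD74-/- replicate 3 rose with exon length, a trend that was not examined in the other libraries. Across the 33 genes its Spearman correlation with exon length was 0.59, and across 14878 genes tested it was 0.21; the genes share the same 3 libraries and are not independent replicates. Over all genes the median deviation was -0.24 in the shortest of 5 equal length classes and -0.27 in the next. It was -0.0006 in the middle class and 0.38 in the longest. Eno1, with 5379 exon bases, and Pfkfb4, with 4875, were low although they are long. This library also had the fewest reads in genes, the lowest summed level of monocyte, B cell and erythroid markers and the highest of stem cell markers. By mean log2 level, CD74-/- replicate 2 was lower than replicate 3 for monocyte (4.19 against 4.66), B cell (2.99 against 3.30) and erythroid markers (5.28 against 5.75). WT replicate 3 was the highest for stem cell markers (11.4, against 11.2 in CD74-/- replicate 3). The part of any of these in the deviation was not tested.

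**Figure D4:**
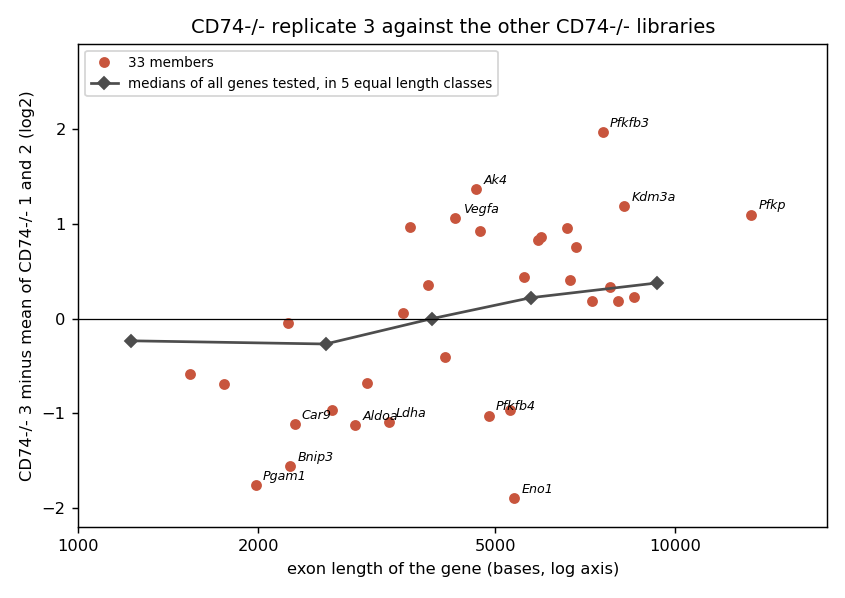
Deviation of CD74-/- replicate 3 from the mean of CD74-/- replicates 1 and 2 (y axis, log2 units) against exon length (x axis, bases, log scale) for 33 genes of the set, with medians of all genes tested in 5 equal length classes (gray diamonds). Pgam1, Bnip3 and Ldha are low and short, Pfkp, Kdm3a and Pfkfb3 high and long, and Eno1 is low at 5379 bases.

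**Figure D5:**
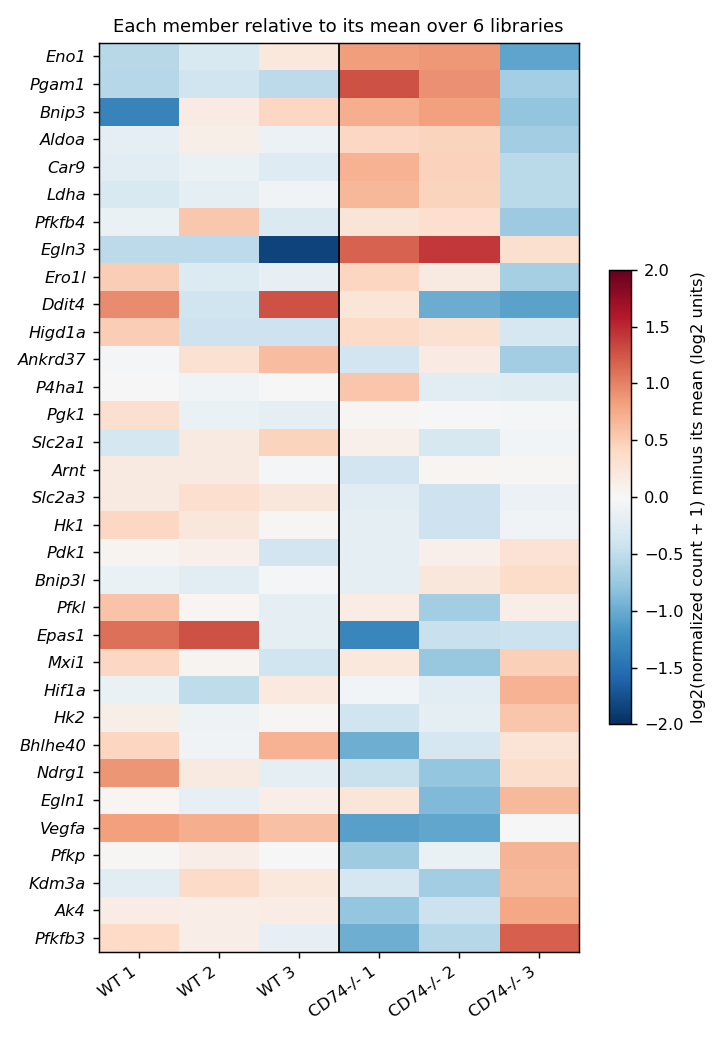
Log2(normalized count + 1) of each gene (rows) in each library (columns) minus its mean over the 6 libraries, in log2 units, with genes in the order of the deviation of CD74-/- replicate 3. Red is above and blue below the mean, and colors stop at 2 units; from Eno1 to Ldha at the top and from Pfkp to Pfkfb3 at the bottom, CD74-/- replicate 3 has the opposite color to CD74-/- replicates 1 and 2.

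Without CD74-/- replicate 3, 5 genes of the set had a higher level in CD74-/- cells at an unadjusted p under 0.05, namely Ldha, Eno1, Egln3, Aldoa and Pgam1, and 5 a lower level, namely Vegfa, Ndrg1, Slc2a3, Kdm3a and Pfkfb3. Over all genes the same fit gave 10.4% higher and 8.89% lower at that threshold, so that both shares rose outside the set too. None of the 10 passed the adjusted threshold, which 0.236% of all genes did. The smallest adjusted p was that of Ldha (0.0892), with a log2 fold change of 0.75 (SE 0.158). Those of Vegfa and Egln3 were then -1.77 (adjusted p = 0.102) and 2.26 (adjusted p = 0.121), and that of Eno1 was 1.06 (adjusted p = 0.113). The median log2 fold change over the set was then -0.28. Leaving out any other library gave 1 gene higher and 1 lower at the unadjusted threshold, as did the fit of all libraries.

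Other genes of the same pathways gave no call either. Of 29 further genes of glycolysis and pyruvate fate tested, 0 passed in either direction, and 4 were lower at an unadjusted p under 0.05, beside 4.6% of all genes. Pfkfb2, another kinase that makes the activator of phosphofructokinase, was at 380 to 499 in WT and 245 to 273 in CD74-/- libraries (log2 fold change -0.79, adjusted p = 0.589). Pfkm, the muscle-type phosphofructokinase subunit, was at 541 to 688 and 289 to 448 (-0.75, adjusted p = 0.607), and Pkm, pyruvate kinase, at 1455 to 2039 and 588 to 1438 (-0.78, adjusted p = 0.630). The groups of these 3 genes did not overlap, as for 7.47% of all genes in this direction. Slc2a6, a lysosomal hexose transporter, was at 17.0 to 68.5 in WT and at 27.4, 0 and 0 in CD74-/- libraries. Of 22 genes of HIF stability and partners, 0 passed at either threshold, with a median log2 fold change of -0.09. Egln2 (PHD1), another prolyl hydroxylase, was at 274 to 342 in WT and 148 to 262 in CD74-/- libraries (-0.72, adjusted p = 0.679). Cul2, the scaffold of the VHL ligase, was at 624 to 796 and 853 to 1193 (0.44, adjusted p = 0.6996). The groups of Egln2 and of Cul2 did not overlap, as for 7.47% (lower) and 5.35% (higher) of all genes. Siah2, a ubiquitin ligase for prolyl hydroxylases, and Rwdd3, which promotes sumoylation of HIF-1alpha, had log2 fold changes of -0.68 and 0.59. Of 30 other HIF targets, 0 passed at either threshold. Plod2, a collagen lysyl hydroxylase (-0.98), and Nampt, of NAD salvage (0.46), had groups that did not overlap. Over all genes tested, 7.47% were apart with lower and 5.35% with higher CD74-/- values. Anxa2, a membrane-binding annexin (-0.83), and Plin2, a lipid droplet coat protein (0.66), had groups that overlapped. Of 9 genes of the pentose phosphate pathway, 0 passed, and Tkt, transketolase (-0.74, adjusted p = 0.613), and Rpia, ribose phosphate isomerase (-0.86, adjusted p = 0.644), were lower at an unadjusted p under 0.05, again beside 4.6% of all genes. The groups of Tkt did not overlap, as for 7.47% of all genes in this direction, and those of Rpia did. G6pdx, the entry enzyme of that pathway, was at 564 to 790.0 in WT and 474 to 675 in CD74-/- libraries, and Prps1, which makes the activated ribose for nucleotides, at 1186 to 1762 and 1321 to 2305.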

How the data were processed

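The 6 RNA libraries of sorted CD34-/LSK cells (3 per genotype) all entered the comparison. Per the labels, the authors used the SMART-Seq v4 kit, which does not keep strand. They read the libraries single-end on a HiSeq2500, trimmed with cutadapt (reads under 30 bp discarded), aligned with STAR 2.4.2a to GRCm38 with Ensembl release 92, counted with htseq-count and normalized with DESeq2 (version 1.10.1). The deposited signal is a normalized count: reads per gene over a size factor from DESeq2, with 2 decimals. The authors' fold changes, p-values and thresholds in the deposited table were not used. Within each library, the values above 0 (101059 in all) came out as whole numbers of reads, to within 0.006, when divided by the smallest step.

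The main test was limma 3.58.1 (R 4.3.3) with its trend option, on log2(normalized count + 1), for genes with a mean of at least 10, two-sided, with Benjamini-Hochberg adjusted p under 0.05 over all 14892 genes. Fold changes on this scale understate those of low genes. Single values had two-sided exact permutation tests over libraries. Alternatives were edgeR 4.0.16, DESeq2 1.42.0 and limma-voom on the recovered reads, other pseudocounts (0.5 and 5), filters and scalings, the replicate number as a block, and leaving out each library. The fits were tested on simulated data. Python 3.11.15 (numpy 2.4.6, pandas 2.3.3, scipy 1.17.1, matplotlib 3.10.9) was used for the rest. Coordinates, exon lengths and shared 50-base words came from GENCODE vM21 on GRCm38 (all 35 genes matched), and promoters from RefSeq (GRCm38.p6).

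Genes of the set were given in full if their unadjusted p was under 0.05 or their groups did not overlap. So were Hif1a, Epas1, Arnt, Vegfa, Slc2a1, Ldha and Pdk1. Of each further pathway list the 4 genes with the smallest p were named. Library values of other genes that moved with CD74-/- replicate 3 were added after they were seen. The genes and lists were chosen with earlier results of these data known. Confidence intervals of fold changes come from the spread between libraries, and limits on counts of 0 cover counting error only.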

Additional observations from a re-analysis of the deposited data

How the results depend on the processing

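No gene of the set passed the adjusted threshold under any of the 16 alternatives, where the smallest adjusted p was 0.0892 (Ldha, without CD74-/- replicate 3). Of 526 pairs of gene and setting, 486 kept the sign of the fold change and 40 did not, and 18 of the 33 genes kept it in all settings. The causes of the changes below were not tested. Over all genes, the 6 higher and 7 lower calls became 49 and 99 with DESeq2 and 3 and 3 with limma-voom. Without 1 library the higher calls ranged from 5 to 23, the highest without CD74-/- replicate 3. The lower calls ranged from 1 to 34. They numbered 1, 2 and 4 when WT replicates 1, 2 and 3 were left out in turn, 34 when CD74-/- replicate 1 was and 12 when CD74-/- replicate 3 was. Deviations of same-numbered libraries were weakly correlated (0.12, 0.07 and 0.02), each value being the highest for its CD74-/- library. WT replicate 3, however, went best with CD74-/- replicate 2 (0.05). Whether the libraries were paired was not tested. With the replicate block, 6 genes were higher and 21 lower, and 0 of the set were called.

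The median log2 fold change of the set ranged from -0.28 (without CD74-/- replicate 3) to -0.0073 when 1 library was left out, and it was 0.025 with edgeR and 0.0089 with DESeq2. Some genes changed sign, with main estimates from as small as -0.0031 (Egln1) to as large as 0.51 (Bnip3). With edgeR, the log2 fold change was 0.14 for Egln1, 0.045 for Hk2, 0.025 for Pfkp, 0.08 for Pfkfb3, 0.016 for Ero1l and 0.027 for Mxi1. With DESeq2 it was 0.12 for Egln1, 0.028 for Hk2, 0.0089 for Pfkp, 0.069 for Pfkfb3 and 0.011 for Mxi1. With limma-voom it was 0.022 for Egln1, 0.026 for Pgk1 and 0.0072 for Ero1l, and with TMM factors 0.014 for Egln1 and 0.012 for Pgk1. Leaving out 1 library gave ranges that crossed 0 for Egln1 (-0.32 to 0.44), Hk2 (-0.32 to 0.16), Pfkl (-0.44 to 0.0062), Pfkp (-0.47 to 0.22), Aldoa (-0.086 to 0.48), Pgk1 (-0.094 to 0.15), Pfkfb3 (-0.90 to 0.19), Pfkfb4 (-0.28 to 0.25), Pdk1 (-0.0091 to 0.27), Bnip3 (-0.035 to 1.03), Ak4 (-0.74 to 0.0298), P4ha1 (-0.21 to 0.18), Ero1l (-0.26 to 0.29), Kdm3a (-0.64 to 0.038) and Mxi1 (-0.29 to 0.33). The log2 ratios did so for Pfkp to Pfkl (-0.0704 to 0.64), Pfkfb4 to Pfkfb3 (-0.44 to 1.15), Bnip3 to Bnip3l (-0.29 to 0.89) and P4ha2 to P4ha1 (-1.07 to 0.65).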
